A study of Mus musculus with 9 samples.

Results

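Malat1 and Neat1, 2 of the 54532 genes in the deposited count table, were followed in all 9 libraries of an RNA-seq study of HC11 cells exposed to red light. Both were taken by gene name, and each name matched 1 row. HC11 is a clonal mouse mammary epithelial line; the labels give its strain as C57BL/6, and every group was grown in the same serum-containing medium and left without any other agent. There were 3 groups of 3 libraries: EpPT2, labelled 20 J/cm2 of light at 660 nm, EpPT1, labelled 10 J/cm2, and Ctrl, untreated. The treatment protocol names other doses, 0.5 and 1 J/cm2 from a 10 mW laser, and no source used here says how long after exposure the RNA was taken. Total counts ranged from 14549787 to 17228929 per library. The labels do not say whether replicates were grown as separate cultures; every p-value therefore reflects the spread among these libraries, and that spread may be technical.

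Both genes make long noncoding RNAs that stay in the nucleus. Malat1 RNA gathers in nuclear speckles, the bodies that store splicing factors, and is among the most abundant noncoding RNAs of mammalian cells. Neat1 RNA is the scaffold of paraspeckles, bodies that form around its long isoform and hold RNA-binding proteins such as Nono and Sfpq. Neat1 also has a short, polyadenylated isoform from the same promoter, which does not build paraspeckles by itself. Mice that lack either gene are viable, and in mice without Neat1 mammary gland development and lactation are impaired.

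The genes are neighbours on the minus strand of chromosome 19 (GRCm38). Malat1 (ENSMUSG00000092341, annotated lincRNA) runs from 5795690 to 5802672, a length of 6983 bases with 42.5% GC. Neat1 (ENSMUSG00000092274, lincRNA) runs from 5824708 to 5845478, a length of 20771 bases with 47.3% GC, and 22035 bases separate them. In GENCODE M21 the full-length transcript of each gene is a single exon. The short Neat1 isoform has 3004 bases and starts at the Neat1 5′ end, so counts per gene cannot separate it from the long one. Another 6 annotated genes overlap the pair, and each of them had 0 counts in the 9 libraries together.

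Neither full-length RNA ends in a poly(A) tail. RNase P cuts each of them after an A-rich tract that is written in the genome and folds back onto U-rich elements as a triple helix. These ends are shown because they set how each RNA can be captured, and the labels do not say whether the libraries were made by poly(A) selection. The stretches are read from the GENCODE M21 transcripts, 5′ to 3′, from the minus strand of chr19:5795982-5796071 for Malat1 and chr19:5824708-5824797 for Neat1. Capitals mark the A-rich tract and the longest run that the bases before it share in both genes, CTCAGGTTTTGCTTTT, which holds a U-rich element.
Malat1: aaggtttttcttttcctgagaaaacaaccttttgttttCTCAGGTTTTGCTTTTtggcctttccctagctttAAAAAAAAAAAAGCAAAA
Neat1, long isoform: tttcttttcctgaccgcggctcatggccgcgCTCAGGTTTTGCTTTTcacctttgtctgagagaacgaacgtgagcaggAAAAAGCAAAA

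The A-rich tract, with its GCAAAA end, has 18 bases in Malat1 and 11 in Neat1. The annotated Malat1 transcript goes on for 292 bases beyond it, while the annotated long Neat1 transcript stops there. The shared run of 16 bases, followed within 100 bases by the shared end AAAAAGCAAAA of 11 bases, was searched on the transcript strand of all 141767 annotated transcripts and was found in 2 of them (0.00141%), the pair it was read from. The short Neat1 isoform ends differently. Its last 60 bases (minus strand of chr19:5842307-5842366) carry the poly(A) signal AATAAA, in capitals.
Neat1, short isoform: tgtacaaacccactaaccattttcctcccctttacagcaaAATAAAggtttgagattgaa

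Malat1 was abundant and Neat1 scarce among the counts of every library. Malat1 had 4007 to 20144 counts and Neat1 10 to 144 counts. Per length, Malat1 lay between 36.3 and 195 CPM per kb (CPM is the counts-per-million unit, here unscaled and divided by gene length in kb) and Neat1 between 0.0279 and 0.408 CPM per kb. Malat1 thus had 93.8 to 2606 times the counts per kb of Neat1, or 13.6 to 377 times if every Neat1 count is given to the short isoform's length. How well these libraries captured each RNA is not known, so these values compare counts and not levels in the cells. Among the 28724 genes with a count, Malat1 ranked between 218 and 1639 per kb, and Neat1 between 13683 and 18974. Malat1 made up 4.71% to 20.2% of all counts on lincRNA genes in a library, and Neat1 0.0102% to 0.168%.

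The level of Malat1 differed several-fold between libraries of the same group. In EpPT2 its level was 244, 1109 and 938 CPM in replicates 1 to 3 (relative to the TMM-scaled library size, as all CPM values from here on unless called unscaled). In EpPT1 it was 506, 257 and 1126 CPM, and in Ctrl 270, 584 and 1512 CPM. In unscaled CPM the highest library of a group was 4.37 times the lowest in EpPT2, 4.14 times in EpPT1 and 4.98 times in Ctrl, and the ranges of the 3 groups overlapped. The means were 764 ± 458 CPM in EpPT2, 630 ± 447 CPM in EpPT1 and 789 ± 646 CPM in Ctrl (SD, n = 3 each). In order of mean level EpPT1 was lowest and Ctrl highest, and no neighbours in that order differed beyond their spread. The spread within groups, as an SD of log2 CPM, was 1.17 for Malat1, against a median of 0.33 over the 216 tested genes within 1.5-fold of its mean level, and was larger than in 97.7% of them.

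Neat1 also differed between libraries of the same group, least in EpPT2, with its lowest values in other libraries than Malat1. In EpPT2 its level was 7.37, 7.59 and 4.73 CPM. In EpPT1 it was 0.577, 8.15 and 7.56 CPM, and in Ctrl 3.91, 1.08 and 8.18 CPM. EpPT1 1 and Ctrl 2 stood apart with 10 and 18 counts, whereas the other 7 libraries had 63 to 144. The 95% Wilson interval, which covers counting error only, was 0.315 to 1.07 unscaled CPM in EpPT1 1, the lowest library, and 7.20 to 9.98 unscaled CPM in EpPT1 2, the highest. In unscaled CPM the highest library of a group was 1.66 times the lowest in EpPT2, 14.6 times in EpPT1 and 6.60 times in Ctrl. The means were 6.56 ± 1.59 CPM in EpPT2, 5.43 ± 4.21 CPM in EpPT1 and 4.39 ± 3.58 CPM in Ctrl (SD, n = 3 each). Here EpPT2 was highest and Ctrl lowest, again with overlapping ranges throughout and no neighbours that differed beyond their spread. The within-group SD of log2 CPM was 1.44, against a median of 0.55 over the 1363 tested genes within 1.5-fold of the Neat1 mean, and was larger than in 96.9% of them.

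**Figure D1:**
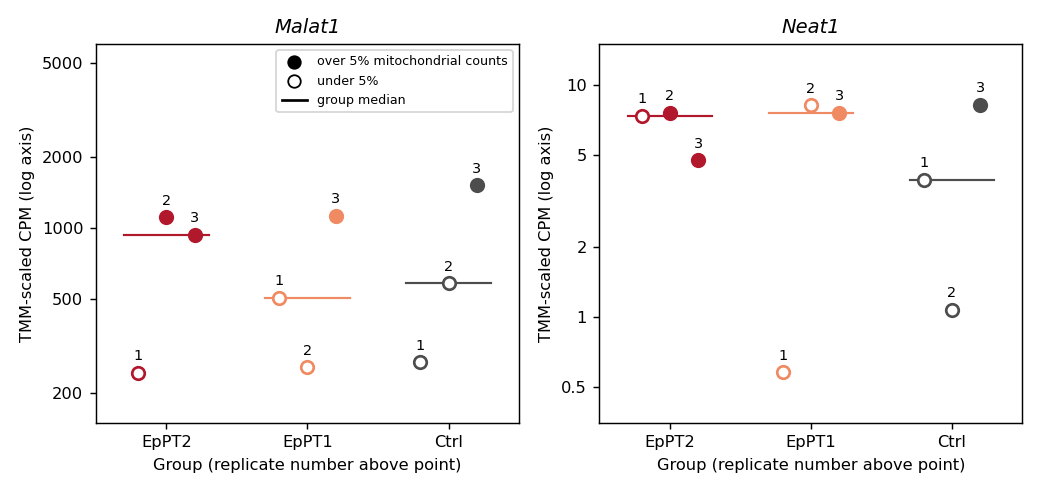
Level of Malat1 (left) and Neat1 (right) in each library, in TMM-scaled CPM on log axes, by group, with the replicate number above each point and the group median as a line; filled points are the 4 libraries with over 5% of counts on the mitochondrial genome. Malat1 is at 938 CPM or more in the 4 filled points and at 584 CPM or less in the 5 open ones, while Neat1 is lowest in EpPT1 1 and Ctrl 2.

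The comparison of EpPT2 with Ctrl asks what the exposure with the higher labelled fluence did to each RNA. Neither passed the test (0 of 2, against 0% of the 14471 genes tested). The log2 difference was −0.05 (SE 0.72) for Malat1 and 0.59 (SE 0.85) for Neat1, with an adjusted p of 0.984 and 0.782 in edgeR's quasi-likelihood test with Benjamini-Hochberg adjustment. Within 2 standard errors, these data allow Malat1 to be anywhere from −1.49 to 1.40 and Neat1 from −1.11 to 2.28 on the log2 scale, so differences of 2-fold in either direction lie inside the interval. The groups overlapped for both RNAs, while they did not overlap in 23.2% of tested genes. At an unadjusted p under 0.05, 12.2% of tested genes would be counted and neither member.

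EpPT1 against Ctrl, the exposure with the lower labelled fluence, gave −0.33 (SE 0.72) for Malat1 and 0.31 (SE 0.85) for Neat1, each with an adjusted p of 0.991 in edgeR. EpPT2 against EpPT1 gave 0.28 (SE 0.72) for Malat1 and 0.28 (SE 0.84) for Neat1, with an adjusted p of 1 for both after rounding. In these comparisons 3.93% and 0.214% of tested genes had an unadjusted p under 0.05, and the groups did not overlap in 5.26% and 2.45%; neither member was among them. The 2 comparisons with Ctrl share their control libraries. Without Ctrl 3, Malat1 turned to 0.84 in EpPT2 against Ctrl and to 0.56 in EpPT1 against Ctrl. Its sign also turned without EpPT2 1 in EpPT2 against Ctrl (0.37), without EpPT1 2 in EpPT1 against Ctrl (0.048), and without EpPT2 2 (−0.091) or EpPT1 2 (−0.096) in EpPT2 against EpPT1. Neat1 in EpPT2 against Ctrl kept its sign, at 0.12 without Ctrl 2 and 1.39 without Ctrl 3, while in EpPT1 against Ctrl it gave −0.15 and 1.12, and −0.11 without EpPT1 2. Without EpPT1 1 it gave −0.25 in EpPT2 against EpPT1.

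**Figure D2:**
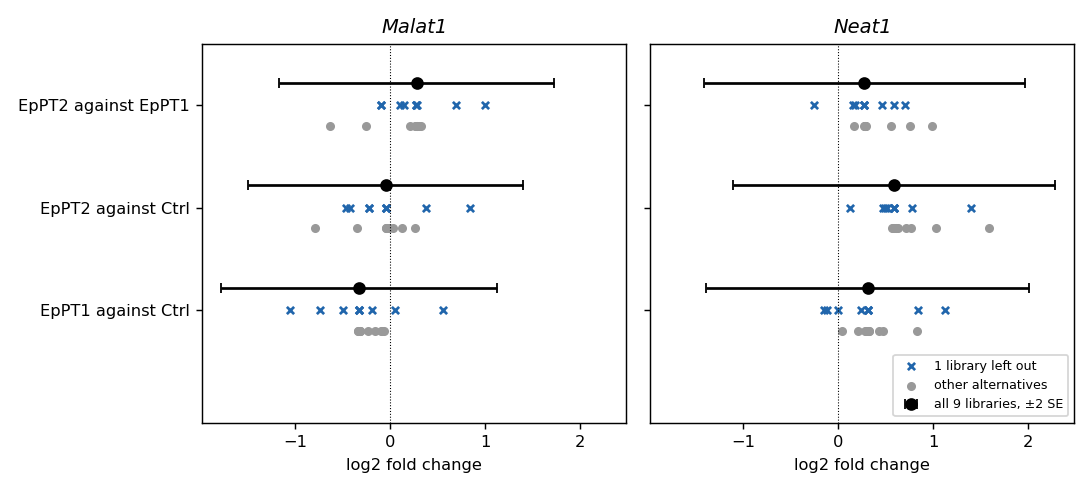
Log2 fold changes of Malat1 (left) and Neat1 (right) in the 3 comparisons; black points with bars are the fit to all 9 libraries ± 2 SE, blue crosses the fits with 1 library left out and grey points the other alternatives. Every bar crosses 0, and for Malat1 the points fall on either side of 0 in each comparison.

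The ratio of the 2 RNAs within a library does not depend on how libraries are scaled. In EpPT2 there were 33.1, 146 and 198 Malat1 counts per Neat1 count. In EpPT1 there were 876, 31.6 and 149, and in Ctrl 69.0, 542 and 185. EpPT1 thus held both the highest and the lowest of the 9 ratios. The mean log2 of Neat1 over Malat1 counts was −6.62 ± 1.38 in EpPT2, −7.33 ± 2.40 in EpPT1 and −7.57 ± 1.49 in Ctrl (SD, n = 3 each). The difference was 0.95 for EpPT2 against Ctrl, 0.25 for EpPT1 against Ctrl and 0.70 for EpPT2 against EpPT1, with two-sided exact permutation p values of 0.5, 0.9 and 0.9, before any adjustment over the 3; with 3 libraries against 3 the test cannot go below 0.1. Malat1 and Neat1 did not share 1 pattern: the root-mean-square difference between their centred log2 CPM profiles was 1.47 over the 9 libraries, above the 0.96 and 1.25 of each profile about its own mean.

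Malat1 instead moved with the share of counts on the mitochondrial genome. That share was 6.06% to 7.48% in 4 libraries (EpPT2 2, EpPT2 3, EpPT1 3 and Ctrl 3) and 2.74% to 3.62% in the other 5, so it divides every group. Malat1 lay at 938 to 1512 CPM in those 4 libraries and at 244 to 584 CPM in the other 5. Among the 5, it was 244 CPM at a share of 3.38%, 257 CPM at 2.74%, 270 CPM at 2.86%, 506 CPM at 3.44% and 584 CPM at 3.62%. Neat1 had no such division, with 4.73 to 8.18 CPM in the 4 libraries and 0.577 to 8.15 CPM in the other 5.

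In a fit that kept the 3 groups and added the mitochondrial share, the Malat1 level was higher by 0.49 on the log2 scale per percentage point (SE 0.06, adjusted p = 0.000201 in edgeR), and the Neat1 level by 0.16 (SE 0.15, adjusted p = 0.418). The difference between these slopes was not tested. Being called for this term is common, since 41.8% of tested genes were; a larger slope than that of Malat1 was found in 4.10% of tested genes. Of all tested genes 16.5% were higher in each of the 4 libraries than in any of the other 5, and 18% were lower in each. The libraries form separate clusters on this axis, so no correlation over them is given. No library lies between 3.62% and 6.06%, so the slopes too mainly compare the 4 libraries with the other 5. With the share in the model, the Malat1 difference was −0.35 in EpPT2 against Ctrl (adjusted p = 0.452 in edgeR) and −0.10 in EpPT1 against Ctrl (adjusted p = 0.885), and for Neat1 it was 0.63 (adjusted p = 0.609) and 0.47 (adjusted p = 0.785).

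**Figure D3:**
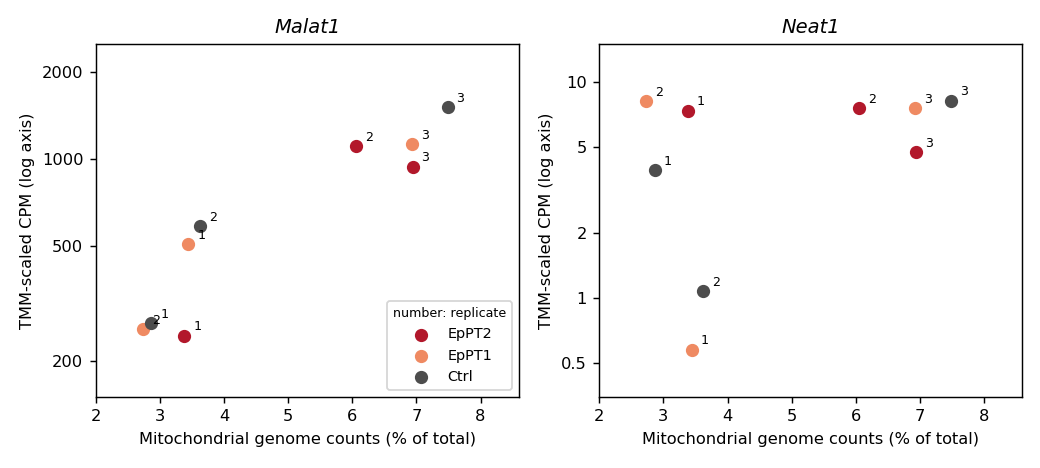
Level of Malat1 (left) and Neat1 (right), in TMM-scaled CPM on log axes, against the percentage of a library's counts on the mitochondrial genome; colours give the group and numbers the replicate. The 4 libraries above 6% hold the 4 highest Malat1 values, from 938 to 1512 CPM, and Neat1 values from 4.73 to 8.18 CPM.

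Some marker genes divided the libraries in the same way and others did not. Of the 6 luminal epithelial markers, Krt8 lay at 559 to 836 CPM, Krt18 at 760 to 1127 CPM, Krt19 at 245 to 638 CPM and Cldn4 at 7.63 to 87.7 CPM. Each of these overlapped between the 4 libraries and the other 5. Epcam, at 17.7 to 44.8 CPM, was higher in each of the 4. The levels of Krt8, Krt18 and Krt19 fit the labelled cell type, while Cdh1 was at most 0.777 CPM and was not tested. The list of 5 blood and immune markers summed to 88.5 to 104 CPM in the 4 libraries and 10.1 to 46.3 CPM in the other 5, nearly all of it Cd68, a lysosomal gene. The pan-leukocyte marker Ptprc was at most 0.7625 CPM, and Cd3e was listed at 0 or near it. The 6 fibroblast markers, of which 3 stayed under 1 CPM, summed to 1821 to 3295 CPM in the 4 libraries and 742 to 2148 CPM in the other 5, which overlap, led by the matrix proteoglycan gene Dcn; the 5 fat cell markers were led by Lpl, which overlapped too, with Adipoq and Plin1 at or near 0. The 5 basal markers, mostly Krt14, summed to 19.7 to 23.9 CPM in the 4 libraries and 4.72 to 9.81 CPM in the other 5. Of them Krt17, Trp63 and Acta2 stayed under 1 CPM, and Krt5 was at most 3.04 CPM. The Malat1 slope given above tests only whether Malat1 and the mitochondrial share move together. Whether that share or these markers had a part as causes of the Malat1 levels was not tested. In bulk RNA fewer cells of a type and less RNA per cell cannot be told apart.

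The genes closest to Malat1 in profile over the 9 libraries, of 9586 compared, were Plat, which encodes tissue plasminogen activator, Rsrp1, which encodes an arginine- and serine-rich protein, and C1s2, a complement protease gene. Their root-mean-square difference from Malat1 in centred log2 CPM was 0.17, 0.18 and 0.19, against a median of 1.05 over all genes compared. Plat had 96.9, 356 and 325 CPM in EpPT2, 187, 106 and 348 CPM in EpPT1, and 98.7, 184 and 436 CPM in Ctrl, so the same 4 libraries were high. Neat1 had less close company, but also only 10 to 144 counts a library, against 4007 to 20144 for Malat1. Counting error adds more to profile differences at low counts, and its part here was not tested. The nearest to Neat1 were Wnt10a, a Wnt ligand gene (0.51), and Ehbp1l1, which encodes a membrane trafficking adaptor (0.51), against a median of 1.31. Ehbp1l1 is also 1 of the 17 tested named genes within 200 kb of the pair. It had 17.8, 13.7 and 14.1 CPM in EpPT2, 4.16, 16.8 and 18.3 CPM in EpPT1, and 10.4, 4.54 and 17.6 CPM in Ctrl. Like Neat1, it was lowest in EpPT1 1 and Ctrl 2, a likeness that its choice by closeness to Neat1 favours.

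Nuclear speckle proteins share their body with Malat1 RNA. Of the 29 listed genes for them, all were tested; 16 were higher in each of the 4 libraries than in any of the other 5, 0 were lower in each, and 13 overlapped, beside 16.5% higher and 18% lower of all tested genes. Son, a large protein that holds speckles together, had 373, 713 and 696 CPM in EpPT2, 502, 382 and 618 CPM in EpPT1, and 516, 397 and 800 CPM in Ctrl. Srrm2, the other speckle scaffold, had 596, 967 and 976 CPM in EpPT2, 584, 618 and 974 CPM in EpPT1, and 548, 496 and 889 CPM in Ctrl. Both were thus higher in each of the 4 libraries. Slopes on the mitochondrial share were positive for 24 of the 29, and for 47.4% of all tested genes, with a median of 0.14 against −0.01.

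Between groups, 0 of the 29 speckle genes passed the test in either direction in any comparison. Their median log2 difference was 0.06 in EpPT2 against Ctrl (16 of 29 higher), −0.09 in EpPT1 against Ctrl (10 of 29) and 0.08 in EpPT2 against EpPT1 (21 of 29), where all tested genes had medians of −0.03, −0.02 and −0.01. The smallest p values belonged to Acin1, which encodes an exon junction and apoptosis factor, with 0.63 (SE 0.26) in EpPT2 against Ctrl and 0.57 (SE 0.26) in EpPT1 against Ctrl, and to U2af2, the large subunit of the U2 auxiliary splicing factor, with 0.46 (SE 0.21) and 0.41 (SE 0.21).

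Of the 30 paraspeckle protein genes, all tested, 10 were higher and 5 lower in the 4 libraries than in each of the other 5, where 16.5% and 18% of all tested genes were, and the other 15 overlapped. The core partners of Neat1 were not among those higher. Nono had 616, 478 and 497 CPM in EpPT2, 579, 619 and 468 CPM in EpPT1, and 622, 567 and 523 CPM in Ctrl. Pspc1 had 45.6, 18.9 and 14.9 CPM in EpPT2, 34.0, 46.9 and 17.1 CPM in EpPT1, and 53.0, 32.9 and 17.9 CPM in Ctrl, so both were lower in each of the 4 libraries. Sfpq overlapped, at 313 to 457 CPM over the 9 libraries. In EpPT1 1 and Ctrl 2, where Neat1 was lowest, Nono had 579 and 567 CPM, Pspc1 34.0 and 32.9 CPM, and Sfpq 421 and 313 CPM, the last being the lowest Sfpq value of the 9.

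Between groups 0 of the 30 paraspeckle genes passed the test in any comparison, with medians of −0.05, −0.05 and −0.06 in EpPT2 against Ctrl, EpPT1 against Ctrl and EpPT2 against EpPT1. Nono gave −0.11 (SE 0.20), Sfpq −0.00 (SE 0.21) and Pspc1 −0.38 (SE 0.53) in EpPT2 against Ctrl. The smallest p values there were those of Cpsf6, a cleavage factor subunit, at −0.47 (SE 0.19), and Taf15, of the FET family of RNA-binding proteins, at 0.45 (SE 0.24), with an adjusted p in edgeR of 0.382 and 0.455. In EpPT1 against Ctrl they were those of Zc3h6, a zinc finger gene, at −1.55 (SE 0.64), and Dazap1, an RNA-binding protein gene, at 0.39 (SE 0.25). Zc3h6 had 23.0 CPM in Ctrl 3 and at most 6.78 CPM in the other 8 libraries.

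Of the 14 genes for the machinery that shapes these 3′ ends (RNase P subunits, the RNase Z gene Elac2 and Mettl16, whose product binds the human MALAT1 triple helix), 12 were tested. In the 4 libraries 8 of them were lower, and 0 higher, than in each of the other 5, where 18% and 16.5% of all tested genes were. Slopes on the mitochondrial share were negative for 11 of the 12, and for 52.6% of all tested genes. None passed the test between groups. The RNase P subunit gene Pop7 had 40.1, 34.4 and 27.7 CPM in EpPT2, 24.1, 37.2 and 30.5 CPM in EpPT1, and 16.9, 22.7 and 18.2 CPM in Ctrl. Pop7 is named because it had the smallest p of the 12 in both comparisons with Ctrl. Its 3 groups gave log2 differences of 0.82 (SE 0.26) in EpPT2 against Ctrl and 0.67 (SE 0.26) in EpPT1 against Ctrl. The adjusted p in edgeR was 0.376 and 0.991, and neither exposed group overlapped Ctrl. Rpp25l had 1.26 (SE 0.74) and 1.18 (SE 0.74), and Rpp30 −0.54 (SE 0.26) and −0.22 (SE 0.25), none of them called. Without overlap, 1 of the 12 (Pop7) was higher and 1 (Rpp30) lower in EpPT2 against Ctrl, beside 23.2% of all tested genes. In EpPT1 against Ctrl 1 (Pop7) was higher and 0 were lower, beside 5.26%. Rpph1, the RNA subunit of RNase P, was at 0 counts in all 9 libraries. Whether these libraries could capture it is not known, so its level in the cells cannot be read from this.

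**Figure D4:**
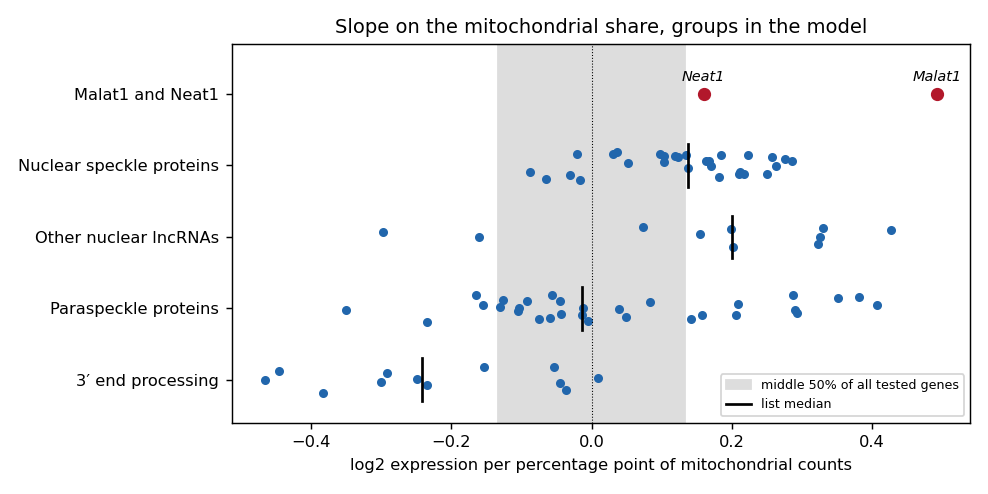
Slope of log2 expression per percentage point of mitochondrial counts, from the fit that also holds the 3 groups; each point is a gene, black lines are list medians and the grey band holds the middle 50% of all tested genes. Malat1 lies at 0.49 and Neat1 at 0.16; the medians are 0.14 for speckle proteins, 0.20 for other nuclear long noncoding RNAs, −0.01 for paraspeckle proteins and −0.24 for 3′ end processing.

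Among 20 other nuclear long noncoding RNAs, 10 were abundant enough to test. Of these, 6 were higher in each of the 4 libraries than in any of the other 5 and 1 was lower, beside 16.5% and 18% of all tested genes. Xist, which coats the inactive X chromosome, had 1287, 2110 and 2240 CPM in EpPT2, 1677, 1159 and 2123 CPM in EpPT1, and 1832, 1615 and 2388 CPM in Ctrl. Tug1 had 213, 521 and 553 CPM in EpPT2, 372, 205 and 555 CPM in EpPT1, and 301, 292 and 765 CPM in Ctrl. Kcnq1ot1, the imprinted antisense RNA of the Kcnq1 locus, ranged from 23.6 to 91.5 CPM with its 4 highest values in the same libraries. None of the 10 passed the test between groups, and 3 of 10 were higher in EpPT2 against Ctrl and in EpPT1 against Ctrl, with medians of −0.11 and −0.17. Firre (0.54, SE 0.26, in EpPT2 against Ctrl; 0.46, SE 0.26, in EpPT1 against Ctrl) and Rn7sk (1.5, SE 0.66; 1.00, SE 0.66) had the smallest p, and Rn7sk was at most 2.51 CPM. Antisense genes such as Kcnq1ot1, and Xist with its partner Tsix, could share reads with the opposite strand, since no source used here says whether counting used strand.

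Of 3 factors reported to induce NEAT1 in human cells, none passed the test. The tumour suppressor gene Trp53 had 265, 146 and 137 CPM in EpPT2, 185, 247 and 165 CPM in EpPT1, and 175, 168 and 91.7 CPM in Ctrl, a log2 difference of 0.33 (SE 0.33) in EpPT2 against Ctrl and 0.46 (SE 0.33) in EpPT1 against Ctrl. It was lower in each of the 4 libraries with a high mitochondrial share, and Hsf1 was higher there. The heat shock factor gene Hsf1 gave 0.65 (SE 0.36) and 0.39 (SE 0.36), and the hypoxia-inducible factor gene Epas1 −0.25 (SE 0.26) and −0.31 (SE 0.26). In EpPT1 1 and Ctrl 2, where Neat1 was lowest, Hsf1 had 31.7 and 29.1 CPM, also its lowest values of the 9, with the next at 33.5 CPM in Ctrl 1.

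The genes that flank the pair were set beside it. No tested gene lies between Malat1 and Neat1. On the Neat1 side the nearest tested gene is Frmd8, which encodes a partner of the iRhom proteins. Frmd8 had 7.19, 3.63 and 3.46 CPM in EpPT2, 0.693, 7.19 and 3.88 CPM in EpPT1, and 3.85, 1.32 and 1.65 CPM in Ctrl. As for Neat1, its values in EpPT1 1 and Ctrl 2 were the lowest of the 9. The profiles differ in Ctrl 3, where Frmd8 had 1.65 CPM and Neat1 its highest value, 8.18 CPM. For Frmd8, Hsf1 and Ehbp1l1 alike, the share of all tested genes that are lowest in EpPT1 1 and Ctrl 2 is not given.

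Of the 17 tested named genes within 200 kb, 0 passed the test in any comparison. All 17 had a positive log2 difference in EpPT2 against Ctrl, with a median of 0.67, and all 17 in EpPT1 against Ctrl, with a median of 0.51, where 47.9% and 48% of all tested genes were positive. The groups did not overlap for 5 and 1 of the 17, beside 23.2% and 5.26% of all tested genes. The NF-kappaB subunit gene Rela is named because it had the smallest p of the 17 in both comparisons. Rela gave 1.10 (SE 0.25) and 0.82 (SE 0.24), with non-overlapping groups and an adjusted p in edgeR of 0.376 and 0.991. These neighbours are rich in GC, with a median of 57.1% against 49.4% over all tested genes. In a fit corrected for GC content library by library, 12 and 11 of the 17 were positive, with medians of 0.17 and 0.21. Of all 14471 tested genes, 6248 and 6469 were positive in that fit, with medians of −0.07 and −0.03. The part of GC content in the differences of the neighbours was not tested. Malat1 and Neat1, with less GC than the median neighbour, gave 0.27 and 0.71 in EpPT2 against Ctrl and −0.06 and 0.43 in EpPT1 against Ctrl in that fit, and neither was called (edgeR adjusted p of 0.904 or above). Several neighbours overlap one another or an antisense gene, as Frmd8 does Frmd8os, and counts there are uncertain.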

How the data were processed

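The authors deposited raw counts per gene for 9 libraries, with gene length in bases. The build mm8 and the aligner Bowtie 0.12.2 are named, per the submitters' processing notes, but the table's coordinates equal those of GENCODE M21 (GRCm38) for 53499 of 54409 gene IDs found there (98.3%), so GRCm38 is used here. No source used here names the read counter or its strand setting. The series title names human tissue; the labels and gene IDs are mouse.

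Groups follow the titles. In R 4.3.3, edgeR 4.0.16 (TMM, filterByExpr, 1 fit of 9 libraries with 6 residual degrees of freedom, quasi-likelihood test, Benjamini-Hochberg over 14471 genes, threshold 0.05, two-sided) gave the fold changes. Standard errors were derived from the fold change and its F statistic. The median one against Ctrl was 0.37. Log2 CPM used a prior count of 2. Exact tests used scipy 1.17.1. The edgeR fit was checked on simulated counts. Named genes were the members, the 3 closest profiles to each (mean of at least 5 CPM, no predicted genes or pseudogenes), fixed core genes, the 2 smallest p per list against Ctrl, and flanking genes; some genes these rules name are not reported here. The members, lists and tests were chosen with earlier results of these data known. Alternatives were DESeq2 1.42.0, limma-voom (limma 3.58.1), other scaling and filters, a replicate block, a mitochondrial covariate, a GC correction (spline with 5 degrees of freedom) and fewer libraries. The test of the covariate's own term, the short-isoform length and the list values after the GC correction were added after the data were seen.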

Additional observations from a re-analysis of the deposited data

How the results depend on the processing

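Neither Malat1 nor Neat1 was called in any comparison under any alternative run. With 1 library left out, Malat1 ranged from −0.46 to 0.84 in EpPT2 against Ctrl, −1.05 to 0.56 in EpPT1 against Ctrl and −0.10 to 1.00 in EpPT2 against EpPT1, and Neat1 from 0.12 to 1.39, −0.15 to 1.12 and −0.25 to 0.70. The log2 ratio of Neat1 to Malat1 ranged from 0.16 to 1.68, −0.92 to 1.47 and −0.52 to 1.87. Malat1 in EpPT2 against Ctrl, at −0.05, turned to 0.13 with the replicate block, 0.27 with the GC trend removed and 0.032 in limma-voom. In EpPT2 against EpPT1 it turned to −0.25 with the mitochondrial covariate and −0.63 with the 5 libraries under 5% mitochondrial counts, where EpPT2 1 is alone and is assumed to vary like the rest; the cause was not tested. There Neat1 gave 1.58 and the ratio 2.55 in EpPT2 against Ctrl. edgeR called 0 genes in each comparison, with 1763, 568 and 31 at an unadjusted p under 0.05 in EpPT2 against Ctrl, EpPT1 against Ctrl and EpPT2 against EpPT1. Without the filter it called 268, 32 and 2, DESeq2 called 61, 1 and 0, limma-voom 0 in each, and with 1 library left out edgeR called 0 to 2, 0 to 0 and 0 to 0; the 2 came without EpPT1 1. With the replicate block edgeR called 0 in each, with 3056, 947 and 173 at an unadjusted p under 0.05. Same-numbered libraries deviated from their group means with correlations across genes of −0.64 to 0.73, and differently numbered ones of −0.77 to 0.75. The mitochondrial share divides every group and enters these deviations, so they cannot settle whether the numbers pair libraries. The median Neat1 rank was 14564 per kb and 9598 by count, and its median level 0.355 CPM per kb, or 2.46 on the short isoform's length. Neat1 had 10 to 144 counts a library.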
